A study of Mus musculus with 2 samples.

Results

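The genes described here are the glutathione and antioxidant enzyme genes, 44 of the 15169 genes in a deposited single-cell table. They were chosen by symbol: the glutathione S-transferases of the alpha, mu, pi, theta, kappa and omega classes (18 genes), the glutathione peroxidases (6) and the peroxiredoxins (6). To these were added the thioredoxin system (Txn1, Txn2, Txnrd1, Txnrd2 and Srxn1), the superoxide dismutases and catalase (Sod1, Sod2, Sod3 and Cat), and the genes of glutathione synthesis and recycling with the quinone reductase (Gclc, Gclm, Gss, Gsr and Nqo1). The rule itself uses no measured value.

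Droplet single-cell RNA sequencing was done on kidney from wild-type C57BL/6 mice of 9 weeks, with 1 library for each of 2 groups. The control is labelled normal. In the other group 1 kidney underwent ischaemia-reperfusion injury (IRI: blood flow stopped and restored) and the opposite kidney was removed. The labels give neither the number of mice per library nor a time after injury, and they name no nephrectomy for the control, so the effect of ischaemia and that of losing the other kidney cannot be told apart.

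Glutathione is a tripeptide that cells make in a pair of steps: glutamate-cysteine ligase, a catalytic subunit (Gclc) with a modifier subunit (Gclm), joins the first amino acids, and glutathione synthetase (Gss) adds the last. Peroxidases spend it to reduce peroxides, transferases attach it to electrophiles, and glutathione reductase (Gsr) restores it from its oxidised form with NADPH. Peroxiredoxins remove peroxides in a parallel route that thioredoxin and thioredoxin reductase recharge, sulfiredoxin (Srxn1) rescues over-oxidised peroxiredoxins, superoxide dismutases turn superoxide into hydrogen peroxide, and catalase breaks that down. In the kidney the proximal tubule is rich in mitochondria and peroxisomes, and it makes the secreted peroxidase Gpx3 that circulates in plasma.

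Many of these genes are known targets of the transcription factor NRF2, which binds the antioxidant response element. The core of that element, TGACNNNGC on either strand, was looked for in RefSeq windows (GRCm38.p6) of 300 bases, from 250 bases before to 50 after a start site. Of the 44 genes 38 had a window, and 8 of the 38 (21.1%) held the core, beside 16.9% of 11200 genes of the deposited table that had one and 14.0% of all 27025 genes. Below are the cores of 5 genes whose values are described later, each with 20 bases on both sides, 5′ to 3′ on the gene's own strand and with the core in capitals. The regions are chr3:122245403-122245451 (Gclm, plus strand), chr3:107895792-107895840 (Gstm5, plus), chr3:107931715-107931763 (Gstm7, minus), chr4:116685446-116685494 (Prdx1, plus) and chr10:82859094-82859142 (Txnrd1, plus).
Gclm: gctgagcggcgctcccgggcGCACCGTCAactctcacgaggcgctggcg
Gstm5: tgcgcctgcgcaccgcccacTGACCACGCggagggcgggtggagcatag
Gstm7: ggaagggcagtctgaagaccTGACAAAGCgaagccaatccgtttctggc
Prdx1: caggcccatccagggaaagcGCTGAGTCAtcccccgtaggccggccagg
Txnrd1: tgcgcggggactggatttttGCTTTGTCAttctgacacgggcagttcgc
The first base of the core lay at -134, -42, -129, -133 and -92 from the start site in that order, on the gene's strand in Gstm5 and Gstm7 and on the opposite strand in the other three. Gsta3, Sod1 and Srxn1 held the core as well. A match of letters is no evidence of binding, and a window without one says nothing about the factor.

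The table held 6589 control cells (median 2344 raw UMIs, which are counted molecules) and 5170 IRI cells (median 1888.5), with cell types named by the deposited annotation. The 2 libraries shared 55 cell barcodes. Levels below are the mean depth-corrected count per cell in a type and library, a scale on which abundance is not adjusted for gene length, so levels of different genes are set side by side only as read counts. Ratios are log2 of IRI over control with 0.05 added to each mean, so a ratio understates the difference of scarce genes. Each group is 1 library, so the spread between animals is unknown, nothing is tested, and every difference describes these 2 libraries only. A gene counts as measured in a cell type when its values sum to at least 10 over both libraries, and as higher or lower when the ratio is at least 2-fold. Each count is set beside the share of all measured genes that passes the same limit.

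Some of the near-identical genes cannot be separated with certainty. In the last 500 bases of the transcript, where this kind of library reads, 75.2% of the 50-base stretches of Gstp1 also occur in Gstp2, 51.0% of those of Gsta2 in some other gene (27.7% in Gsta1), 88.9% of those of Gpx4 in the pseudogene Gpx4-ps2 and 30.2% of those of Sod1 in Gm8566. Values of those genes may include or lose reads of the copy. Gstm1, at 0.887%, shared few.

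The glutathione peroxidases were the most abundant of these genes in nearly every type, apart from control thick ascending limb, where Prdx5 stood at 6.91 and Gpx3 at 4.83, and the control thin limb. The secreted peroxidase Gpx3 was the most abundant of the 44 genes in every segment of the proximal tubule, with 50.7 per cell in control PT-S1 and 52.4 in IRI PT-S1. It was also found at 3.44 and 3.68 in control and IRI T cells and 4.40 in control red cells, types not known to make it. Gpx1, the cytosolic glutathione peroxidase, came next in the tubule at 12.5 in both libraries of PT-S1. Prdx5, a peroxiredoxin of mitochondria and peroxisomes, or Gpx4, which reduces lipid peroxides in membranes, came after it.

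Other genes were highest outside the proximal tubule. Gpx6 stood at 0.327 in control and 0.357 in IRI thick ascending limb and at 0.114 and 0.206 in distal convoluted and connecting tubule, and no other type with at least 20 cells in a library was above 0.0286. The mu-class transferase Gstm2 was at 1.71 in control and 0.457 in IRI myofibroblasts, against at most 0.00667 in PT-S1 to PT-S3. Gpx8, a peroxidase of the endoplasmic reticulum, was also highest in myofibroblasts, at 0.710 in control and 0.371 in IRI. Sod2, the mitochondrial dismutase, was highest in control PT-S2 (1.20), while in IRI the highest level was in distal convoluted and connecting tubule (1.30), followed by thick ascending limb (1.16).

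**Figure D1:**
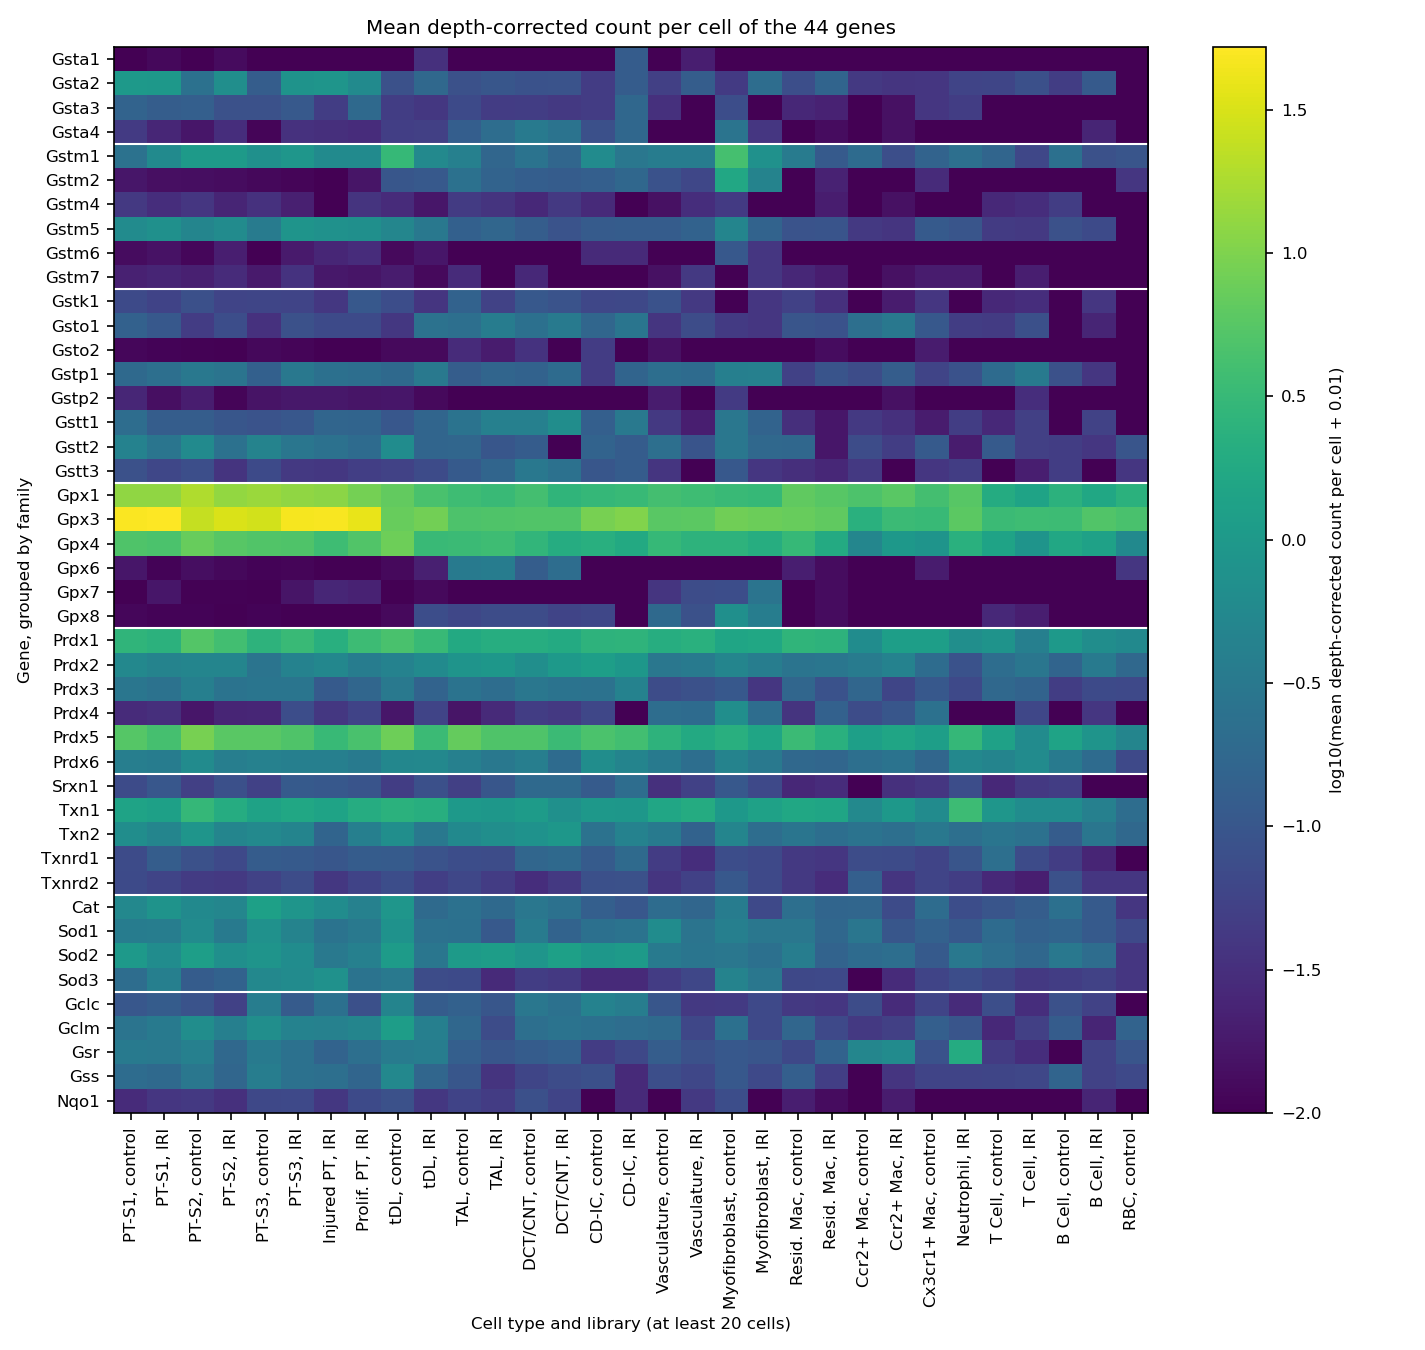
Mean depth-corrected count per cell of the 44 genes (rows, grouped by family) in every cell type and library with at least 20 cells (columns), coloured as log10 of the mean plus 0.01. Gpx3, Gpx1, Gpx4, Prdx1, Prdx5 and Txn1 are high in most columns, and Gpx3 is brightest in proximal tubule, reaching 52.4 in IRI PT-S1.

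The main comparison was in the proximal tubule, segments S1 to S3 together (4827 control cells with a median of 2738 UMIs, 3261 IRI cells with 1819). Of the 44 genes 41 were measured there. The other three, Gsta1, Gpx8 and Gsto2, summed to under 10. At the 2-fold limit 1 gene was higher, the alpha-class transferase Gsta2, and 0 were lower, beside 0.41% and 0.762% of 11944 genes. Both counts depend on which cells fill the pool. With the 8 clusters that hold at least 20 cells of each library weighted equally, the higher gene was Gstm1 in place of Gsta2. In that setting, chosen after seeing the data, 0 were lower, and the shares of all genes were 0.26% and 0.276%. It also leaves out the cells of all other clusters. In PT-S3, clusters 3 and 4 hold 127 and 742 of 1442 control cells, and 727 and 58 of 790 IRI cells. The part of leaving cells out in its results was not tested. Together the 44 genes made up 3.62% of the corrected counts in control and 3.80% in IRI proximal tubule.

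Of the 41 genes 25 (61.0%) had a ratio under 0, near the 53.9% of all measured genes, with a median of -0.15 beside -0.01 for all measured genes. Among genes with a mean of at least 0.1 in either library the median was -0.36 for 25 of the 44 and -0.21 for all 2123. At a 1.5-fold limit, chosen after seeing the data, 7 were lower (Gclc, Gclm, Gsr, Gss, Gstt2, Sod1 and Sod2) beside 3.26% of all measured genes, and 1 was higher (Gsta2) beside 1.42%. All 7 belong to the more abundant genes, where the shares were 28% of the 25 and 15.1% of the 2123. With equal cluster weights none of the 7 passed this limit (the lowest was Gsr at -0.39), and 20 of the 41 genes had a ratio under 0 beside 62.6% of all. Gstt1 was then the 1 lower gene, beside 1.53% of all genes, and 3 were higher (Gstm1, Gstp1 and Sod3), beside 0.996%.

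In glutathione synthesis and recycling 5 of 5 genes had a ratio under 0 (median -0.59), beside 53.9% of all genes. With equal cluster weights, which leave out the cells of other clusters, 3 of 5 did, beside 62.6% of all genes. Gclc was at -0.07, Gss at -0.07 and Gsr at -0.39, with Gclm at 0.12 and Nqo1 at 0.24. Gclc, the catalytic subunit of the first step, stood at 0.165 in control and 0.0791 in IRI (log2 -0.74). Gclm, its modifier, stood at 0.610 and 0.381 (-0.62). Gss stood at 0.299 and 0.181 (-0.59). Each of these means was lower in IRI, and none passed the 2-fold limit. Gsr stood at 0.370 and 0.228 (-0.59), and Nqo1, a quinone reductase, was scarce at 0.0369 and 0.0328.

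The peroxidases went both ways. Gpx3 stood at 29.1 in control and 41.8 in IRI (log2 0.52), the largest gap in counts per cell among the 44 genes. Gpx1 stood at 16.6 and 12.7 (-0.38), and Gpx4 at 6.24 and 5.14 (-0.28). In the pooled segments the abundant secreted peroxidase was thus higher and both intracellular ones were lower, all within 2-fold. With equal cluster weights that contrast was not found, with Gpx3 at -0.11, Gpx1 at -0.19 and Gpx4 at 0.02.

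Among the transferases, which detoxify electrophiles, Gsta2 stood at 0.292 in control and 0.790 in IRI (log2 1.30). Gstm5 was at 0.456 and 0.704 (0.57), and the theta-class Gstt2 at 0.527 and 0.256 (-0.92). Gstm1 was level in the pooled segments, at 0.846 and 0.871. The mu class had 2 of 6 genes under 0, and the pi, theta, kappa and omega classes 5 of 7 measured, beside 53.9% of all genes.

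Among the peroxiredoxins 4 of 6 had a ratio under 0 in the pooled segments, beside 53.9% of all genes. With equal cluster weights 3 of 6 did, beside 62.6%, and there Prdx1 turned to 0.11 and Prdx5 moved to -0.13. Prdx5 stood at 7.70 in control and 5.15 in IRI (log2 -0.58), and Prdx1, the main cytosolic peroxiredoxin, at 4.12 and 3.30 (-0.32). Their electron donors were lower as well in the pooled segments. Txn1, in the cytosol, stood at 2.29 and 1.70 (-0.42), and Txn2, in mitochondria, at 0.747 and 0.481 (-0.58). Sod1, the cytosolic dismutase, stood at 0.628 and 0.368 (-0.70), and Sod2 at 1.07 and 0.663 (-0.65). The extracellular Sod3 went the other way, at 0.247 and 0.330 (0.36), as did Srxn1, at 0.0435 and 0.0846 (0.53). With equal cluster weights Txn1 was at -0.12, Txn2 at -0.20, Sod1 at -0.35 and Sod2 at -0.39, with Sod3 at 0.64 and Srxn1 at 0.47. In PT-S3 Prdx1 (0.36) and Txn1 (0.24) were higher in IRI, while Prdx5 (-0.23) and Txn2 (-0.23) were lower.

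The libraries also differed in depth, mitochondrial share and makeup of these cells. Mitochondrially encoded genes took 19.0% of corrected counts in control and 24.2% in IRI proximal tubule. Kap, a gene of the mature tubule, stood at 36.8 and 13.5, and the 10 proximal tubule markers summed to 75.0 and 43.5, with 0 of the 10 at 0 in either library. Kap made up most of that gap: 2 of the 10 were at least 2-fold lower (Kap and Slc7a13), and their median ratio was -0.06. The injury marker Havcr1 stood at 0.000622 and 0.0761. The part of these differences in the results above was not tested beyond the comparisons by segment, cluster and depth.

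The segments did not share 1 pattern. In PT-S1 (600 control and 989 IRI cells) Gstm1 was the only one of 37 measured genes at least 2-fold higher (0.245 and 0.585, log2 1.11), and 0 were lower, beside 0.675% and 0.424% of all genes. In PT-S2 (2785 and 1482 cells) Gsta2 was higher (0.234 and 0.673, 1.35), and Gsr (0.400 and 0.170, -1.03) and Gstt2 (0.591 and 0.231, -1.19) were lower, beside 0.234% and 0.996%. In PT-S3 (1442 and 790 cells) Gsta2 (0.114 and 0.803, 2.37) and Gstm5 (0.338 and 0.834, 1.19) were higher and Gclc was lower (0.362 and 0.106, -1.40), beside 1.09% and 2.34%. The Gclc call was not found in its clusters 3 and 4. In cluster 3 (127 and 727 cells) Gclc stood at 0.0709 and 0.105 (0.35), and in cluster 4 (742 and 58 cells) at 0.164 and 0.0690 (-0.85). Both control means were below the segment's 0.362, and the other control cells of PT-S3 lie outside these clusters. Gstm5 did not pass the limit in either of them, at 0.66 in cluster 3 and 0.52 in cluster 4. In PT-S2 Gstt2 passed it in none of clusters 0, 1, 2 and 12 (-0.73, 0.62, -0.80 and -0.56). Gsr passed it in clusters 2 and 12 (-1.07 and -1.09) but not in 0 and 1 (-0.37 and -0.10). Gsta2 passed it in clusters 1, 2 and 4 but not in 0, 3 and 12, and Gstm1 in both PT-S1 clusters, 5 and 6. By segment, no gene passed the limit in all 3.

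RNA levels of glutathione synthesis genes differed by segment label. Gclm stood at 0.260 in control and 0.327 in IRI PT-S1, at 0.649 and 0.391 in PT-S2, and at 0.681 and 0.430 in PT-S3. The lower mean of PT-S2 was not found within its clusters 0, 1, 2 and 12, where the log2 ratio was -0.07, 0.29, 0.29 and 0.05. In clusters 3 and 4 of PT-S3 it was 0.10 and -0.35. Of the 5 genes of synthesis and recycling with Nqo1, 2 had a ratio under 0 in PT-S1, 5 in PT-S2 and 4 in PT-S3. The alpha transferases had 3 of 3 measured genes under 0 in PT-S1, 1 in PT-S2 and 0 in PT-S3. Of all measured genes 63.3%, 62.4% and 60.5% were under 0 in those segments. Families this small allow no more than a description. Catalase stood at 0.530 and 0.806 in PT-S1 but at 1.30 and 0.872 in PT-S3. These differences between segments were not tested.

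Gsta2 and Gpx3 were high in PT-S1 of both libraries. Gsta2 stood at 0.983 in control and 0.957 in IRI there, and the IRI levels of PT-S2 (0.673) and PT-S3 (0.803) came close to it. Gpx3 stood at 28.7 and 47.1 in PT-S3 (log2 0.71), beside 50.7 and 52.4 in PT-S1. Segment markers moved in PT-S3 too: Slc7a13, a transporter of the S3 segment, stood at 1.41 in control and 0.110 in IRI, and Slc5a2, the glucose transporter of the early segments, at 0.0583 and 0.177. The PT-S3 label therefore does not cover cells of the same marker profile in both libraries, and the part of that in these ratios was not tested.

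**Figure D2:**
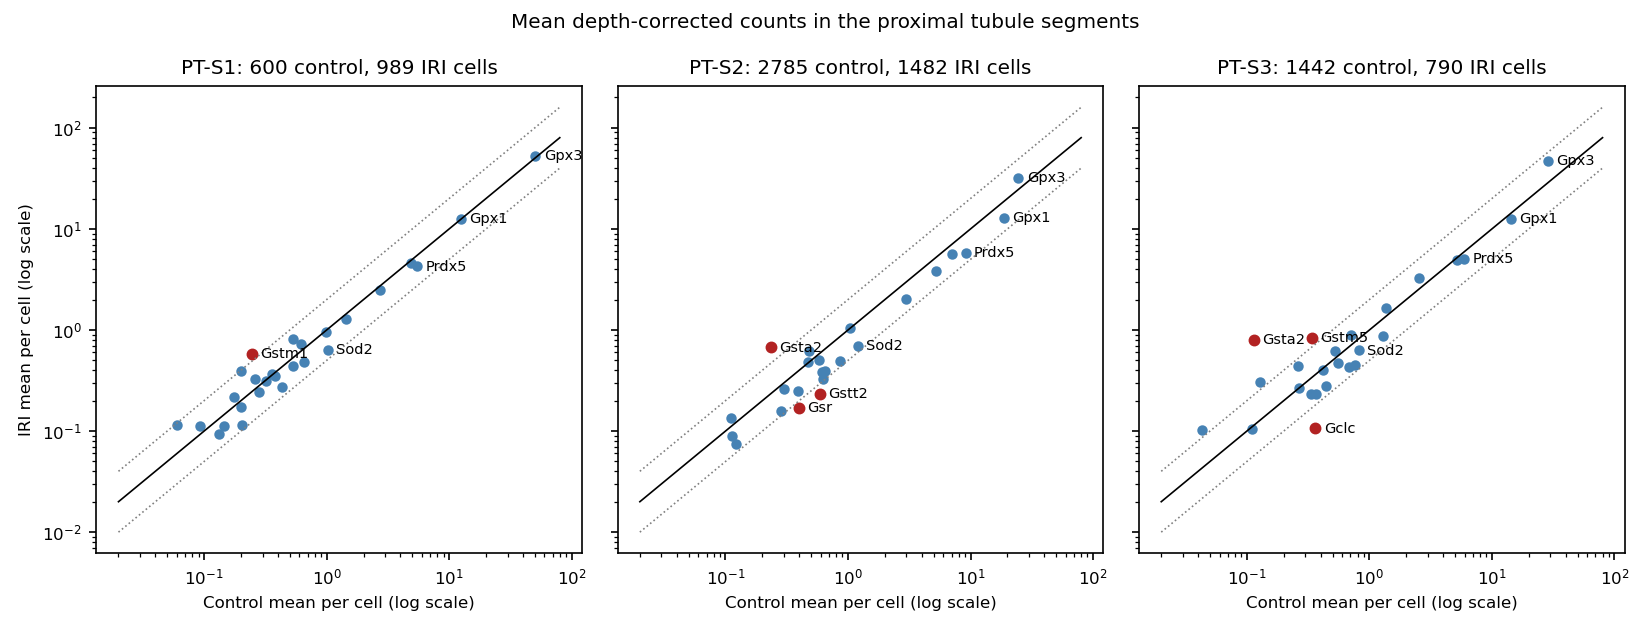
Mean depth-corrected count per cell in control (horizontal) and IRI (vertical), both on log scales, for the measured genes with a mean of at least 0.1 in either library, in the 3 proximal tubule segments. The solid line marks equal levels, the dotted lines a 2-fold difference, and red points differ at least 2-fold in log2 with 0.05 added: Gstm1 in PT-S1, Gsta2, Gsr and Gstt2 in PT-S2, and Gsta2, Gstm5 and Gclc in PT-S3.

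Within the segments the deposited clusters gave a finer view, and 8 of them held at least 20 cells of each library. Clusters were made from expression values that include these genes, so they are a description and not an independent check. Gstm1 was higher in IRI in all 8, by log2 0.59 to 2.38, although its pooled ratio was 0.04. In cluster 5 of PT-S1 it stood at 0.198 in control and 0.541 in IRI, and in cluster 12 of PT-S2 at 0.394 and 2.26. The libraries filled the clusters unequally. The 3 with the most Gstm1 in control, clusters 1 and 2 of PT-S2 and 4 of PT-S3, held 1283, 898 and 742 control cells but 25, 72 and 58 IRI cells, and in cluster 1 Gstm1 stood at 1.22 and 3.48. With the 8 clusters weighted equally the means were 0.531 and 1.43 (log2 1.34).

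Gstm5 (0.16 to 0.99) and Gstp1 (0.09 to 1.20) were also higher in all 8 clusters, and the theta-class transferase Gstt1 was lower in all 8 (-0.93 to -0.51). In deeper cells a thinly filled cluster went the other way: Gstm5 in cluster 2 was at -1.05 with at least 1000 UMIs (17 IRI cells), and Gstp1 in cluster 4 at -0.18 with at least 2000 (15 IRI cells). So 3 of the 33 genes measured in every cluster were higher throughout and 1 was lower throughout, beside 2.05% and 6.56% of 4347 genes. Gstm7 was scarce, and it was measured in 6 of the clusters. In clusters 3 and 12 it was listed at 0 in control and stood at 0.0261 and 0.0342 in IRI. Only IRI cells brought it past the limit of measurement there. In cluster 5, where it did not pass, it stood at 0.0141 in control and 0.00399 in IRI, so no direction is drawn for Gstm7. Gstt1 stood at 0.114 in control and 0.0978 in IRI in the pooled segments, a ratio of -0.15, and at 0.158 and 0.0790 with equal weights (-0.69).

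For Gsta2 and Gpx3 equal weights gave a smaller ratio. Gsta2 was higher in 4 clusters and lower in 4, and with equal weights its means were 0.591 and 0.780, a log2 ratio of 0.37 in place of 1.30. In cluster 1 of PT-S2 it stood at 0.157 in control and 1.04 in IRI, over 25 IRI cells, and in cluster 4 of PT-S3 at 0.105 and 0.448. In clusters 5, 6, 0 and 12 the 2 libraries were close, for example 1.43 and 1.33 in cluster 6. Gpx3 was higher in 4 clusters and lower in 4, and its equally weighted ratio was -0.11 in place of 0.52. The Gclm ratio was 0.12 in place of -0.62, with 6 of 8 clusters above 0. Sod2, by contrast, was lower in 7 of 8 and its equally weighted means were 1.09 and 0.824 (-0.39).

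**Figure D3:**
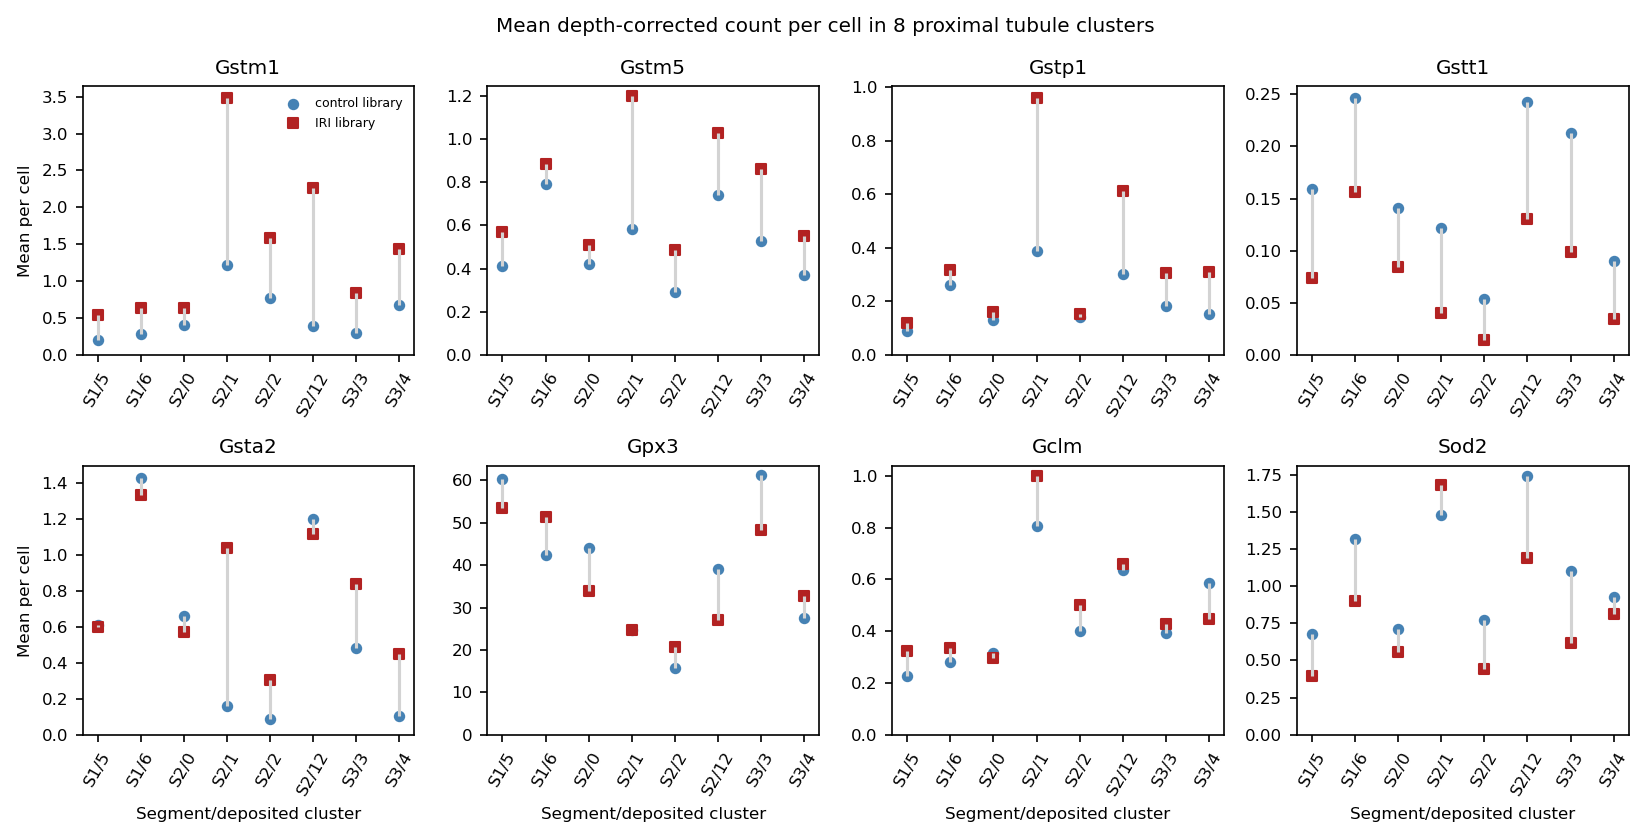
Mean depth-corrected count per cell of 8 genes in the 8 proximal tubule clusters, named by segment and deposited cluster number, with control as blue circles, IRI as red squares and a grey line joining the 2 libraries. The red square is above the blue circle in all 8 clusters for Gstm1, Gstm5 and Gstp1 and below it in all 8 for Gstt1, while Gsta2 and Gpx3 are split 4 and 4.

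The deposited annotation sets apart 135 cells of the IRI library as injured proximal tubule, with 0 control cells of that name. Set against PT-S1 to PT-S3 of the same library, 2 of 40 measured genes were at least 2-fold higher and 2 lower, beside 2.41% and 1.48% of all genes. Gclc stood at 0.230 in injured cells and 0.0791 in the segments (log2 1.11), and Sod3 at 0.748 and 0.330 (1.07). The mitochondrial pair Txn2 (0.148 and 0.481, -1.42) and Sod2 (0.304 and 0.663, -1.01) were lower. Prdx3, the mitochondrial peroxiredoxin that Txn2 recharges, stood at 0.104 and 0.252 (-0.98). Gsta2 (0.859 and 0.790) and Gpx3 (47.5 and 41.8) were at the level of the segments. The injured cells were deeper, with a median of 8267 UMIs, and 31.9% of their corrected counts were mitochondrially encoded; the part of either in these differences was not tested. In the 155 proliferating cells of the IRI library 0 genes were higher and 0 lower, beside 1.53% and 0.88%.

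Macrophages were compared as the 3 deposited types together, 326 control and 542 IRI cells, with 32 of the 44 genes measured. Gsr, which regenerates glutathione, was the only gene at least 2-fold higher, and Gstm1 and Gstt2 were lower, beside 2.46% and 2% of all genes. The lower calls depended on depth: in cells of at least 1000 UMIs the 1 lower gene was Gstm1, beside 5.14% of all genes. In cells of at least 2000 it was Cat, beside 5.31%. Gsr stood at 0.104 in control and 0.327 in IRI (log2 1.29). By type Gsr stood at 0.0532 and 0.137 in resident macrophages (log2 0.86) and at 0.5 and 0.613 in Ccr2+ macrophages (0.27), both within 2-fold. In Cx3cr1+ macrophages it stood at 0.0755 and 0.105. Their 19 IRI cells are under the limit of 20 cells in each library, so no direction is drawn for that type. The Ccr2+ type had the highest mean in both libraries. The Ccr2+ type numbered 32 control and 217 IRI cells and the Cx3cr1+ type 106 and 19, so the mix differed between the libraries. In T and B cells together Gsr stood at 0.0233 and 0.0301, below its macrophage means. At the 1.5-fold limit 2 genes were higher, with Gstp1 added, and 7 lower, beside 7.18% and 7.96%.

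The lower genes of macrophages were lower in lymphocytes as well. Gstm1 stood at 0.261 in control and 0.0867 in IRI macrophages (log2 -1.18), and at 0.174 and 0.0602 in T and B cells together (-1.03). Gstt2 stood at 0.135 and 0.0203 in macrophages (-1.40), and at 0.0814 and 0.0361 in T and B cells. Proximal tubule markers, which RNA free in the droplets would carry, summed to 20.8 and 7.26 in macrophages and to 10.8 and 4.25 in T cells, with 0 of the 10 at 0 in macrophages. The part of free RNA in the lower values was not tested beyond subtracting the lymphocyte means, after which Gstm1 no longer passed the limit and Gstt2 did. That subtraction also takes away what lymphocytes express themselves.

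In resident macrophages alone (188 control and 306 IRI cells) the higher gene was Prdx4, the peroxiredoxin of the endoplasmic reticulum, at 0.0266 and 0.131 (log2 1.24), beside 6.61% of all genes. Gstm1 (0.340 and 0.101, -1.37), Gstt2 (0.165 and 0.00654, -1.93) and Sod2 (0.372 and 0.141, -1.15) were lower, beside 3.27%. Here too the tubule markers were lower in IRI, at 29.5 and 10.9. In Ccr2+ macrophages Prdx3, Sod1 and Txnrd2 were lower, beside 6.51%, and 0 of 22 genes were higher, beside 12.5%. C1qa and C1qb, defining macrophage genes, are listed at 0 in the 32 control cells of that name and stood at 2.59 and 4.06 in IRI, so the name does not cover like cells in both libraries.

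Neutrophils (106 cells in IRI and 2 in control, so not compared) had the highest Gsr of any IRI type with at least 20 cells, 1.95 per cell, followed by Ccr2+ macrophages at 0.613. Their Txn1 level, 3.53, was also the highest, followed by the deposited thin limb at 2.14. In T cells (59 and 97 cells) Prdx5 (1.34 and 0.619) and the cytosolic thioredoxin reductase Txnrd1 (0.220 and 0.0619) were lower, beside 3.37% of all genes, and 0 were higher, beside 2.88%. In these cells red cell markers summed to 0.729 in control and 9.42 in IRI, macrophage markers to 0.0508 and 0.258 and proximal tubule markers to 10.8 and 4.25, and their part was not tested. In B cells (27 and 69 cells) Txn2 was higher (0.111 and 0.275), beside 9.1%, and Gstm1 was lower (0.222 and 0.0725), beside 4.79%.

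Myofibroblasts (31 control and 35 IRI cells) had the highest control levels of 8 of the 44 genes. Gstm1 stood at 4.13 in control and 0.743 in IRI (log2 -2.40) and Gstm2 at 1.71 and 0.457 (-1.79). Prdx4 (0.677 and 0.200) and Txn2 (0.484 and 0.200) were also lower, as were Cat (0.355 and 0.0571) and Gstm5 (0.484 and 0.143), which did not pass the limit in cells with at least 1000 UMIs (-0.78 and -0.88). These were 6 of 22 measured genes, beside 19.9% of all genes. Gpx7, a peroxidase of the endoplasmic reticulum, was the only gene higher (0.0645 and 0.257, 1.42), beside 6.22%. The stroma marker Dcn stood at 9.00 and 0.686 and the collagen Col1a1 at 1.03 and 3.29. Podocyte markers summed to 0.645 in control and 0 in IRI, monocyte markers to 0.0645 and 0.714 and proximal tubule markers to 15.1 and 6.86, and the part of all of these in these ratios was not tested.

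The deposited thin descending limb fell into 2 clusters whose markers go against the name. Cluster 11 (391 control and 20 IRI cells) carried proximal tubule markers at a summed 99.2 and 160, above the level in PT-S1 to PT-S3. The rise of the sum was not general: of 9 measured markers 3 were at least 2-fold lower in IRI and 0 higher, with a median ratio of -0.47. In IRI 2 of the 10 were at 0. The sum includes Fxyd2, which stood at 31.8 and 41.3 in thick ascending limb as well. In cluster 9 (36 and 420 cells) the control cells carried Aqp2, the water channel of principal cells, at 5.33, while the IRI cells carried it at 0.164, with Lcn2, an injury gene, listed at 0 in control and at 2.48 in IRI. They are therefore called by their numbers.

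In cluster 9, 5 of 36 genes were higher (Gsr, Gstp1, Gpx8, Gstm5 and Gsta2), beside 10.4% of all genes, and 6 were lower (Gstm1, Gstm2, Gsta4, Gstt1, Gstt3 and Gsta3), beside 7.81%. Gsr stood at 0.0556 in control and 0.381 in IRI (log2 2.03), while Gstm1 stood at 3.33 and 0.514 (-2.58). In cluster 11, 8 of 31 genes were lower, beside 18.2%, and 0 were higher, beside 6.09%. With cells of at least 1000 UMIs 8 IRI cells are left there, and Gstm1 (-0.36) and Gstm5 (-0.16) no longer pass the limit. The part of the marker differences between the libraries in these ratios was not tested.

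Of the 4 remaining types none had more than 3 genes past the limit on either side. In thick ascending limb (324 and 112 cells) Gstm1 was lower (0.407 and 0.161), beside 2.29%, and 0 genes were higher, beside 1.05%. Kap stood at 8.91 and 1.79 there, and the median ratio of the 8 measured proximal tubule markers was -0.63. In distal convoluted and connecting tubule (236 and 63 cells) Gstt2, at 0.110 in control and listed at 0 in IRI, and Sod1 (0.339 and 0.143) were lower, beside 4.78%, with 0 higher, beside 2.22%. In intercalated cells of the collecting duct (57 and 55 cells) Gsta3 (0.0351 and 0.164), Gstp1 (0.0351 and 0.145) and Gstt1 (0.123 and 0.309) were higher, beside 5.88%, with 0 lower, beside 7.07%. In the vasculature (222 and 96 cells) Gclm (0.185 and 0.0521), Gstt2 (0.221 and 0.0833) and Sod1 (0.644 and 0.260) were lower, beside 4.37%, with 0 higher, beside 1.56%. There the proximal tubule markers summed to 20.3 and 9.00 and the red cell markers to 4.35 and 0.0833, whose part was not tested. The part of the marker differences of the tubule types in their ratios was not tested either.

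Across the 14 types and clusters compared, 11 of 42 measured genes were at least 2-fold higher in 1 or more and 22 were lower in 1 or more, beside 17% and 20.7% of 12524 genes. Both directions occurred in 7 of them, beside 4.62%. Gstt2 had a ratio under 0 in 13 of the 13 where it was measured, from -1.93 in resident macrophages to -0.26 in intercalated cells. Gpx3 was above 0 in 12 of 14, none past the limit. Gstm1 was under 0 in 11 of 14, with 6 past the limit, and above 0 in the 3 proximal tubule segments, by 0.01 in PT-S2. Several of these types also had lower sums of proximal tubule markers in IRI, as given above. The part of free RNA in these counts was not tested, so the types cannot be taken as separate observations.

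**Figure D4:**
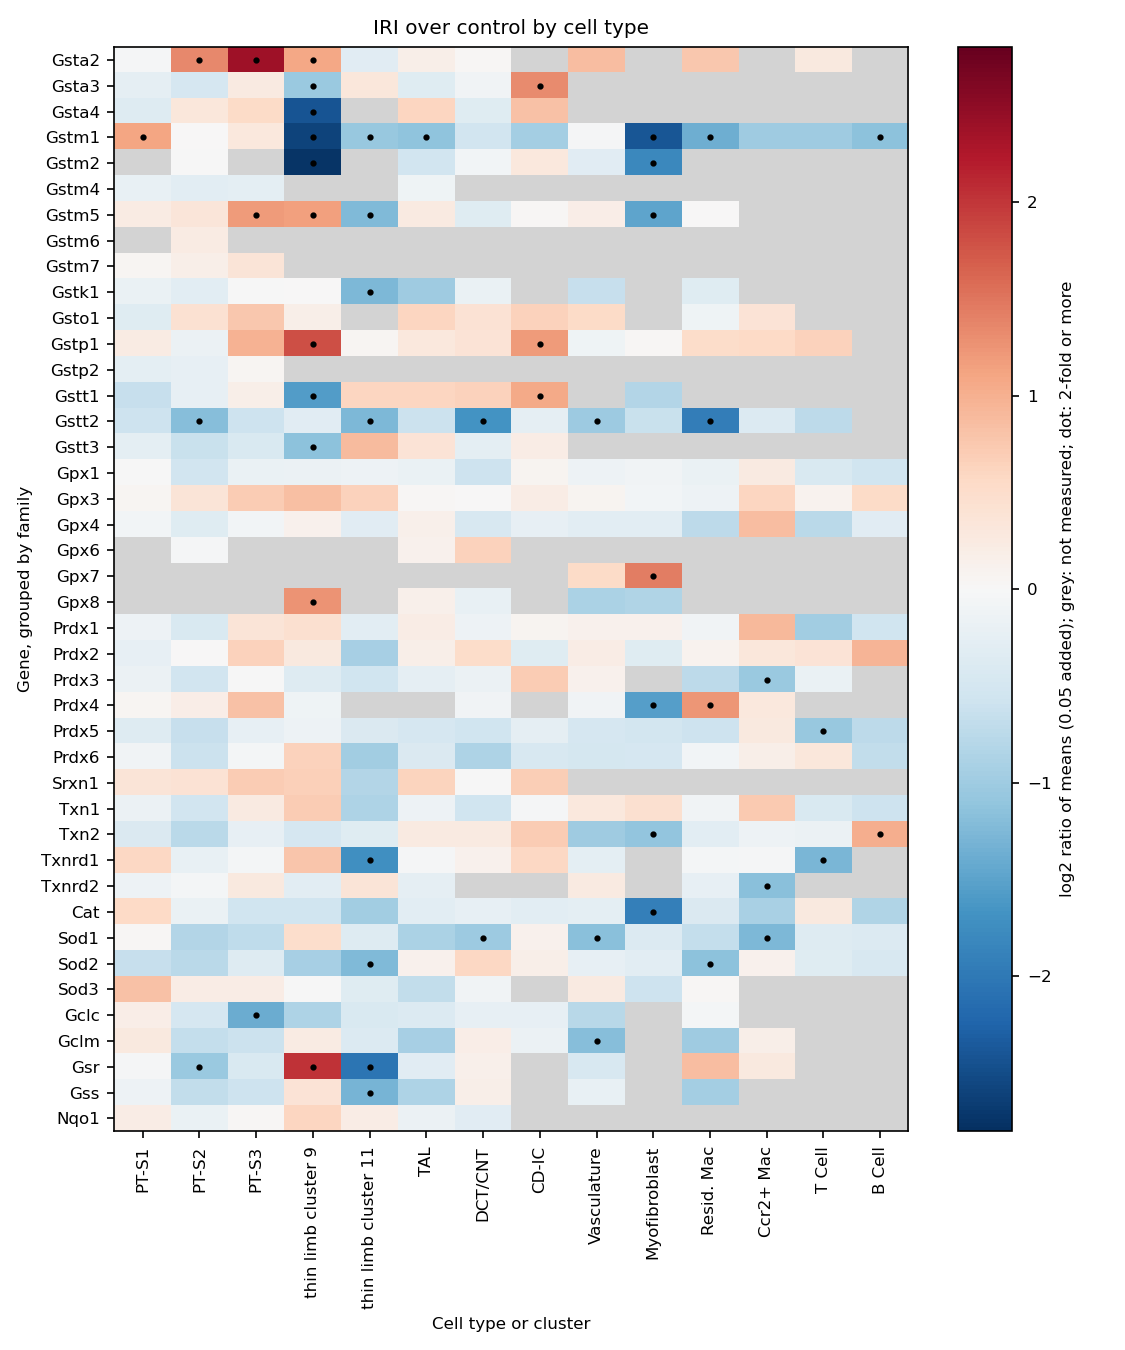
Log2 ratio of IRI over control means (0.05 added) for the measured genes, grouped by family, in 14 cell types and clusters. Red is higher and blue lower in IRI, grey was not measured, and a dot marks at least 2-fold. The Gstm1 row is red in PT-S1, near 0 in PT-S2 and vasculature, and blue in the other types outside the proximal tubule, from 1.11 in PT-S1 to -2.58 in cluster 9, and the Gstt2 row is blue in all 13 types measured.

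Other genes of the pathway came from 7 lists of 61 genes, of which 60 are in the table. In the proximal tubule 2 were at least 2-fold higher, beside 0.41% of all genes, and 2 lower, beside 0.762%. Idh1, which makes NADPH in the cytosol, stood at 0.333 in control and 0.804 in IRI (log2 1.16), and it was 1 of 8 measured genes of NADPH supply, with 0 lower. Mgst1, a membrane-bound transferase, stood at 0.0249 and 0.118 (1.17), 1 of 8 measured among membrane and other glutathione enzymes. Lower were 2 of the 9 measured genes of glutathione turnover: Ggct, a cyclotransferase acting on gamma-glutamyl amino acids (0.284 and 0.0807, -1.35), and Chac2, which breaks glutathione down (0.192 and 0.0696, -1.02). The lists of NRF2 regulation (7 measured), glutaredoxins and repair (11), selenoprotein supply (3) and oxidant sources (10) had 0 genes past the limit on either side. Hmox1, the haem oxygenase and an NRF2 target, stood at 0.0244 and 0.0941 (0.95).

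In macrophages Hmox1 stood at 0.0982 in control and 0.554 in IRI (log2 2.03), and Ltc4s, the leukotriene C4 synthase, at 0.0184 and 0.113 (1.25). Lower were Txnip, the inhibitor of thioredoxin (0.356 and 0.103, -1.40), Sephs2, Ggct, Slc25a39 and Me1, between log2 -1.18 and -1.01. By list, beside 2.46% higher and 2% lower of all genes, NRF2 regulation had 1 higher and 1 lower of 8 measured, glutathione turnover 2 lower of 7, NADPH supply 1 lower of 8 and selenoprotein supply 1 lower of 2. Membrane and other glutathione enzymes had 1 higher of 8, and glutaredoxins and repair 0 of 11. Resident macrophages alone had 0 lower of 5 measured in NRF2 regulation and 2 of 5 in glutathione turnover, beside 3.27% of all genes. They had 1 lower of 7 in NADPH supply and 1 of 2 in selenoprotein supply. Ccr2+ macrophages had 0 lower of 6 in NRF2 regulation, 0 of 6 in NADPH supply and 1 of 2 in selenoprotein supply, beside 6.51%. The part of the differing mix of types and of free RNA in these values was not tested.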

How the data were processed

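The deposited table used here holds, per the file itself, a score: whole numbers that the authors obtained as SCTransform depth-corrected counts, with totals per cell from 1468 to 3212 whatever the raw UMIs, so sampling error cannot be read from them and no interval is given. Raw counts were not analysed here. Per the submitters' processing notes reads went through Cell Ranger 3.0.0 on mm9 and Seurat 3.2. The deposited annotation has no separators; in 3615 of 11759 cells raw UMIs and genes (200 or more) could be split in several ways, and the split nearest the curve of genes on UMIs of the other cells was taken, which bears on depth alone. Depth correction moves levels of shallow cells by a model, and free RNA was not removed. Doublet handling is not given in the sources used here. The RefSeq and GENCODE sequences are of GRCm38, another build than mm9.

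Means, log2 ratios (0.05 added) and counts were computed with Python 3.11.15, NumPy 2.4.6 and pandas 2.3.3 in types with at least 20 cells per library, and the ratio was tested on simulated data. The 44 genes and all lists were chosen with earlier results of these data known. Values are given in full for genes with a mean of at least 0.1 among the most extreme ratios (12 on each side in proximal tubule, 5 elsewhere), the 3 of highest mean in a type, and pathway genes past 2-fold. Other genes are named as members of the set. Alternatives were another added constant, another limit, 2 scalings, deeper cells, subtraction of lymphocyte means and, chosen after seeing the data, a 1.5-fold limit, equal cluster weights and resident macrophages alone. The macrophage result of the list of oxidant sources is not reported here.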

Additional observations from a re-analysis of the deposited data

Results flagged for a closer look

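Of the 42 genes measured in any of the 14 types and clusters compared, 7 were at least 2-fold higher in IRI in one and at least 2-fold lower in another, beside 4.62% of all 12524 genes measured. The difference between types was not tested, since each type has 1 library per group. Gsr had a log2 ratio of 2.03 in cluster 9 and -2.06 in cluster 11 of the deposited thin limb, where the mean of Aqp2, a principal cell gene, was 5.33 (control) against 0.164 (IRI) in cluster 9 and cluster 11 had 20 IRI cells. Gstm1 had 1.11 in PT-S1 and -2.58 in cluster 9. Gsta3 had 1.33 in intercalated cells and -1.04 in cluster 9, and Gstt1 had 1.06 and -1.56 in the same pair. Gstm5 had 1.19 in PT-S3 and -1.47 in myofibroblasts. Prdx4 had 1.24 in resident macrophages and -1.54 in myofibroblasts. Txn2 had 1.01 in B cells, on 27 control cells, and -1.09 in myofibroblasts, on 31.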

How the results depend on the processing

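Percentages in brackets are the share of all measured genes past the limit under the same setting. In the proximal tubule the count of higher genes was 1 (0.41%) under the main setting and became 0 with 0.5 added to each mean (0.0251%). The count of lower genes was 0 (0.762%) and became 1 with 0.01 added (Gstt2, 2.07%). It was 2 with lymphocyte means subtracted (Prdx6 and Txn2, 1.9%) and 7 at the 1.5-fold limit (3.26%). In macrophages the count of higher genes was 1 (2.46%) and became 0 with 0.5 added (0.317%) and 2 at 1.5-fold (7.18%). The count of lower genes there was 2 (2%) and became 5 with 0.01 added (10.5%) and 0 with 0.5 added (0.127%). It was 1 in cells of at least 1000 UMIs (Gstm1, 5.14%) and 1 in cells of at least 2000 (Cat, 5.31%). With lymphocyte means subtracted it was 5 (2.75%), and at 1.5-fold it was 7 (7.96%). The limit and the constant act by their construction, and the cause of the others was not tested. Under both other scalings, the other limits on summed values and, in the proximal tubule, the deeper cells, these counts kept their values; the scalings removed an offset of -0.15 on the log2 scale in macrophages and -0.05 in proximal tubule, which moved the ratios up. Equal cluster weights, which leave out the cells of other clusters, kept the proximal tubule counts at 1 (0.26%) and 0 (0.276%) but with another gene, Gstm1 for Gsta2. Subtracting lymphocyte means turned the proximal tubule ratios of Gstp1 (-0.29) and Prdx2 (-0.44) to the lower side. That step cannot separate free RNA from what lymphocytes express themselves. Prdx6 stood at 0.430 in control and 0.434 in IRI lymphocytes, beside 0.526 and 0.378 in the proximal tubule. Its IRI mean there was thus below the amount subtracted, and its lower call under this setting says nothing of free RNA. No paired analysis was possible because each group has 1 library, and no library could be left out for the same reason. Depth limits what can be said of the scarcest genes and of types with few cells.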
